A study of Mus musculus with 4 samples.

Results

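The genes described here encode the tyrosine kinases and adaptor proteins that act next to FceRI, the high-affinity IgE receptor of mast cells. They are the Src family kinases Lyn and Fyn, their inhibitory kinase Csk, the kinases Syk and Btk, the adaptors Lat, Lat2, Lcp2 and Gab2, and the exchange factor Vav1. A probe set was taken where the annotation of the array gave 1 of these 10 symbols and no other. This rule, which uses no measured value, found 13 of the 22690 probe sets on the array, for 9 of the 10 genes. No probe set carried the symbol Lyn in the annotation used, and Lyn is not analysed here.

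The arrays held RNA of mast cells grown from mouse bone marrow, from 2 Pac1-/- and 2 wild-type (Pac1+/+) cultures, with 1 Affymetrix array per culture. Pac1, the product of Dusp2, is a phosphatase that inactivates MAP kinases. Mice were 8 to 12 weeks old, and marrow was kept in 5 ng/ml interleukin-3 for 4 to 6 weeks. Every culture was then given 100 ng/ml of IgE against dinitrophenyl for 18 h, followed by 20 ng/ml of its antigen, DNP-HSA, for 2 h. No unstimulated culture was among the arrays, so every level given is that of activated cells.

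When antigen clusters IgE-bound FceRI, Src family kinases phosphorylate the receptor's tail motifs, and Syk docks there and becomes active. Syk and its partners phosphorylate the membrane adaptors Lat and Lat2 and the cytosolic adaptor Lcp2, which gather phospholipase C-gamma, Btk and Vav1 into 1 complex that raises calcium and activates MAP kinases. Fyn and Gab2 form a branch towards PI3 kinase, and Csk restrains the Src family by phosphorylating an inhibitory tail tyrosine.

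The arrays also differed in measures of RNA quality, in median intensity and in some markers. Beta-actin signal from the 3' end exceeded that from the 5' end 293-fold and 54.8-fold on Pac1-/- replicates 1 and 2, against 109-fold and 1.58-fold on wild-type replicates 1 and 2. For GAPDH the ratio was 1.36 and 191 on the Pac1-/- arrays, against 0.798 and 0.839 on the wild-type arrays. The median deposited intensity was 40.5 and 24.5 on Pac1-/- replicates 1 and 2, against 49.3 and 47.9 on wild-type replicates 1 and 2. Of 8 mast cell markers, 7 read at least 100 on all arrays, by the brightest probe set of each gene. The second probe sets of Kit, Mitf and Tpsb2 fell below 100 on some or all arrays, and that of Hdc did not. None of the markers of T cells (6), B cells (4 with a probe set) or neutrophils (6) reached 100 on any array. The summed signal of the brightest probe sets of 6 macrophage markers was 5284 and 373 on the Pac1-/- arrays, against 6829 and 560.3 on the wild-type arrays. Most of it came from Cd68, a lysosomal glycoprotein (4934 and 93.7, against 6416 and 128). Csf1r, Cd14, Mrc1 and Marco read at most 111.5 on any array, and Adgre1 read 233 and 199.7, against 247 and 253. Of the erythroid and megakaryocyte markers only Itga2b, of 5 with a probe set, reached 100 on any array, and of the basophil and eosinophil markers 1 of 3 did. The Dusp2 probe set read 116.9 and 51.6 on the Pac1-/- arrays, against 174 and 99.4 on the wild-type arrays. The genotypes overlapped, and where its probes lie relative to the deletion is not stated, so it does not check the labels. The control transcripts bioC, bioD and cre, added during array processing, read higher on both Pac1-/- arrays. Their median log2 difference was 0.81 over 12 probe sets on the deposited values. Their part in the genotype differences was not tested.

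None of the kinases and adaptors differed between Pac1-/- and wild-type cells in limma's test across the array. Of the 13 probe sets, 9 had a mean normalised intensity of at least 100 over the 4 arrays and were tested. They covered Fyn, Syk, Btk, Csk, Lat, Lat2 and Lcp2. The 4 others, for Fyn, Syk, Gab2 and Vav1, had means of at most 89.9 and are given as levels only. The number of probe sets with a limma adjusted p under 0.05 was 0 of 9, and 0 of 9 had an unadjusted p under 0.05. Over all 7770 tested probe sets the shares were 0% and 3.38%. Adjusted p-values lay between 0.866 and 0.992, and the 95% interval of each of the 9 differences included 0. The narrowest interval reached 1.02 log2 units to either side of its estimate and the widest 6.77. RNA came from whole cultures, so fewer expressing cells and less RNA per cell cannot be told apart. With 2 arrays per genotype the smallest p of an exact permutation test is 0.333, and no such test was made. Because arrays that share a replicate number were alike in many probe sets, each difference is also given for replicate 1 and replicate 2 alone.

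**Figure D1:**
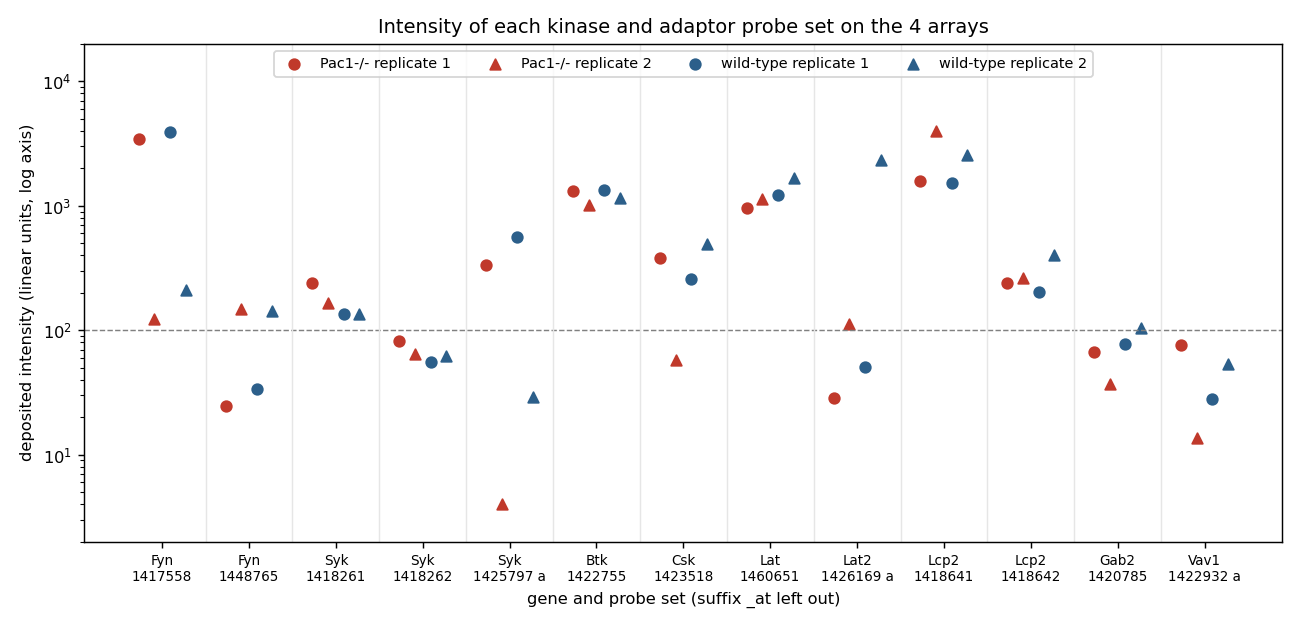
Deposited intensity (linear units on a log axis) of the 13 probe sets on the 4 arrays, with Pac1-/- in red, wild-type in blue, circles for replicate 1 and triangles for replicate 2. The dashed line marks 100. Fyn 1417558_at and Syk 1425797_a_at separate by replicate number, Lat2 is high on 1 array, and Btk, Lat and Lcp2 stay above the line on all 4.

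Fyn, the Src family kinase that starts the Gab2 branch, gave 2 opposite readings. Probe set 1417558_at had deposited intensities of 3431 and 123 in Pac1-/- replicates 1 and 2, against 3955 and 210.1 in wild-type replicates 1 and 2. The replicate 1 arrays were the high ones in both genotypes. After normalisation replicate 1 exceeded replicate 2 by 24.6-fold in Pac1-/- cells and 20.2-fold in wild-type cells. The log2 difference between genotypes was -0.31 ± 2.35 (SE, n = 2 per genotype; limma adjusted p = 0.992), and -0.17 for replicate 1 and -0.46 for replicate 2 alone. Its sign was positive with arrays centred on their medians (0.14), without Pac1-/- replicate 2 (2.00) and without wild-type replicate 1 (1.85).

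The second Fyn probe set, 1448765_at, is assigned to the same RefSeq transcript and ran the other way. It read 24.6 and 148 on the Pac1-/- arrays, against 33.9 and 142 on the wild-type arrays, so the replicate 2 arrays were high. Replicate 2 exceeded replicate 1 by 6.68-fold in Pac1-/- cells and 4.94-fold in wild-type cells. The replicate 1 readings were dim and are not shown to be above background, so the sizes of both folds are approximate. Of the sum of squares over the 4 arrays, 99.4% for the first probe set and 98.9% for the second lay between the replicate numbers. The genotypes overlapped in both, and the files do not say which of the 2 readings follows the Fyn transcript.

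Csk, which inhibits Src family kinases, was low on 1 array. Its probe set 1423518_at read 379.7 and 57.7 in Pac1-/- replicates 1 and 2, against 259.8 and 493 in wild-type replicates 1 and 2. Pac1-/- replicate 1 lay between the wild-type values and Pac1-/- replicate 2 below both. Pac1-/- minus wild-type was -1.06 ± 0.94 on the log2 scale (SE, n = 2 per genotype; limma adjusted p = 0.875), made up of 0.51 for replicate 1 and -2.62 for replicate 2. Without Pac1-/- replicate 2 it was 0.032. That array was also the one with the GAPDH 3' to 5' ratio of 191, whose part in the Csk value was not tested.

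Syk, the kinase that binds the phosphorylated receptor, has 3 probe sets, and they did not move together. Probe set 1418261_at read 238 and 165.5 in Pac1-/- cells, against 135 and 134 in wild-type cells, and both Pac1-/- arrays were above both wild-type arrays. Log2 intensities averaged 7.69 ± 0.20 in Pac1-/- cells and 6.98 ± 0.0030 in wild-type cells (SD, n = 2 each). The log2 difference of 0.71 ± 0.36 (SE; 95% interval -0.31 to 1.73; limma adjusted p = 0.866) was 0.85 for replicate 1 and 0.57 for replicate 2 alone.

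Probe set 1418262_at of Syk stayed below 100 on every array and was not tested. It read 81.8 and 64.6 in Pac1-/- cells, against 55.7 and 62.4 in wild-type cells, again with both Pac1-/- arrays above. Its log2 difference was 0.72, and 0.72 within either replicate number. Probe set 1425797_a_at had the opposite sign. It read 337 and 4.0 in Pac1-/- cells, against 562 and 28.9 in wild-type cells. Here the replicate 1 arrays were the high ones, as for Fyn 1417558_at, by 20.5-fold in Pac1-/- and 24.8-fold in wild-type cells after normalisation and a floor of 16. Pac1-/- replicate 2 was below that floor and wild-type replicate 2 close to it, so the sizes of both folds are approximate. Between genotypes the log2 difference was -0.71 ± 2.36 (SE; limma adjusted p = 0.978). For replicate 1 alone it was -0.84 and for replicate 2 alone -0.57. It was 1.47 without Pac1-/- replicate 2 and 1.61 without wild-type replicate 1. Cd68 was high on the same 2 arrays as these Fyn and Syk probe sets. Its part in their values was not tested.

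Btk, the Tec family kinase that helps activate phospholipase C-gamma, varied little. Its probe set 1422755_at read 1317 and 1009 in Pac1-/- cells, against 1347 and 1165 in wild-type cells. The genotypes overlapped, since Pac1-/- replicate 1 was above wild-type replicate 2. The log2 difference between genotypes was -0.26 ± 0.42 (SE; 95% interval -1.46 to 0.94; limma adjusted p = 0.925), and -0.05 for replicate 1 and -0.47 for replicate 2 alone. It was 0.51 with median centring and 0.054 without Pac1-/- replicate 2.

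**Figure D2:**
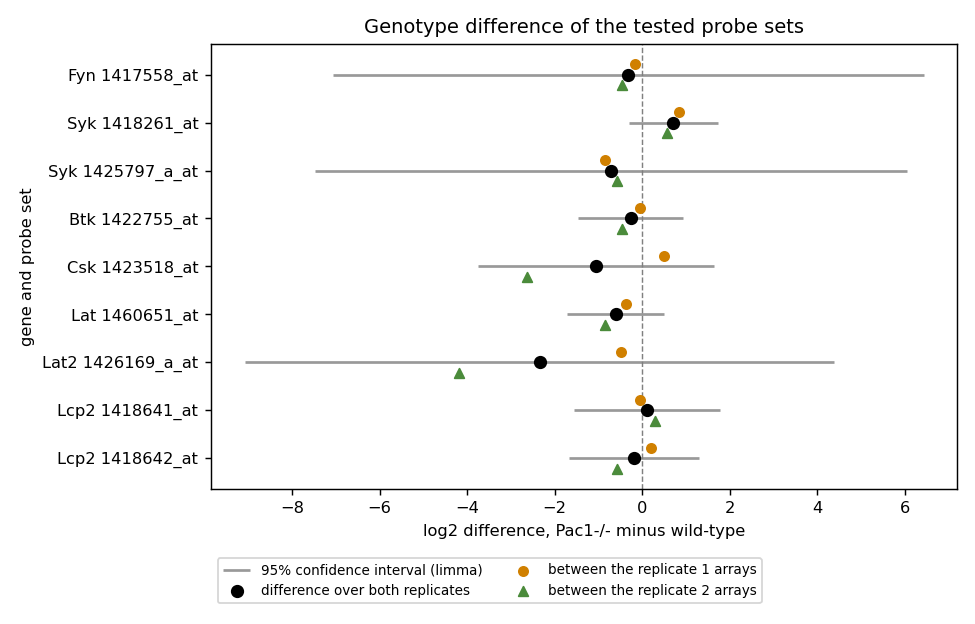
Log2 difference, Pac1-/- minus wild-type, of the 9 tested probe sets (black) with its 95% limma interval (grey), and the differences for replicate 1 alone (orange circles) and replicate 2 alone (green triangles). Every interval includes 0, and the replicate 2 difference of Lat2 (-4.19) and of Csk (-2.62) lies far from the replicate 1 difference.

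Among the adaptors, Lat was lower in both Pac1-/- cultures than in both wild-type cultures. Lat is the membrane scaffold on which the signalling complex forms. Its probe set 1460651_at read 965 and 1135.5 in Pac1-/- cells, against 1219 and 1659 in wild-type cells. Normalised log2 intensities averaged 9.97 ± 0.00053 in Pac1-/- cells and 10.58 ± 0.34 in wild-type cells (SD, n = 2 each). The log2 difference was -0.61 ± 0.38 (SE; 95% interval -1.71 to 0.49; limma adjusted p = 0.866). For replicate 1 alone it was -0.37 and for replicate 2 alone -0.85. With median centring it was 0.18, where the median of all tested probe sets moved to 0.69, against 0.06 with quantile normalisation.

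Lat2, also called NTAL or LAB, is a related membrane adaptor. Its probe set 1426169_a_at read 28.5 and 111 in Pac1-/- replicates 1 and 2, against 50.3 and 2351 in wild-type replicates 1 and 2. Wild-type replicate 2 stood alone, and the other 3 arrays were near or below 100. The log2 difference was -2.34 ± 2.35 (SE; limma adjusted p = 0.878), and -0.49 for replicate 1 and -4.19 for replicate 2 alone. Without wild-type replicate 2 it was 0.62, and without wild-type replicate 1 it was -5.30. Replicate 2 exceeded replicate 1 by 4.69-fold in Pac1-/- cells and by 60.8-fold in wild-type cells. Both replicate 1 readings are at a level not shown to be above background, so the sizes of these folds are approximate. Wild-type replicate 2 was also the array with the lowest beta-actin 3' to 5' ratio (1.58), and the part of that ratio in the Lat2 value was not tested.

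Lcp2, also called SLP-76, is the cytosolic adaptor that links Lat to Vav1 and Btk. Its probe set 1418641_at read 1574 and 3987 in Pac1-/- cells, against 1538 and 2583 in wild-type cells. The replicate 2 arrays were higher in both genotypes, by 2.09-fold in Pac1-/- and 1.66-fold in wild-type cells. The log2 difference was 0.12 ± 0.58 (SE; 95% interval -1.55 to 1.79; limma adjusted p = 0.989). It was -0.05 for replicate 1 and 0.29 for replicate 2 alone, of opposite sign. With median centring it was 0.95, on the values as deposited 0.33, without Pac1-/- replicate 2 -0.41 and without wild-type replicate 1 -0.25.

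Probe set 1418642_at of Lcp2 read 240.0 and 263 in Pac1-/- cells, against 201 and 403 in wild-type cells. The Pac1-/- values lay between the wild-type values. The log2 difference was -0.18 ± 0.52 (SE; limma adjusted p = 0.972), with 0.44 under median centring and 0.34 without wild-type replicate 2. For replicate 1 alone the difference was 0.21 and for replicate 2 alone -0.57, again of opposite sign. Replicate 2 was again the higher array in each genotype, by 1.20-fold in Pac1-/- and 2.05-fold in wild-type cells.

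Gab2 and Vav1 were dim and were not tested. Gab2, the adaptor that binds PI3 kinase, read 66.3 and 36.8 in Pac1-/- cells, against 78.1 and 104.4 in wild-type cells on probe set 1420785_at. Both Pac1-/- arrays were below both wild-type arrays, with normalised log2 differences of -0.10 in replicate 1 and -0.72 in replicate 2. Vav1, the exchange factor for Rac, read 76.2 and 13.5 in Pac1-/- cells, against 28.1 and 53.6 in wild-type cells on probe set 1422932_a_at. Its log2 difference was 1.70 in replicate 1 and -0.97 in replicate 2, so the 2 pairs of arrays had opposite signs. No detection call accompanies the deposited values, so readings at this level are not shown to be above background.

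Over the 9 tested probe sets, 7 had a lower and 2 a higher mean log2 intensity in Pac1-/- cells. Over all tested probe sets 47.1% were lower and 52.9% higher. The median log2 difference was -0.31 for the 9, against 0.06 for all tested probe sets. For replicate 1 alone it was -0.05, against 0.0081 for all tested probe sets, and for replicate 2 alone -0.57, against 0.13. Without Pac1-/- replicate 2 the median was 0.032. With median centring it was 0.18 over the same 9 probe sets, and 0.30 over the 10 that then reached the intensity minimum, against 0.69 for all. The genotypes did not overlap in 2 of the 9 probe sets, Syk 1418261_at and Lat, against 37.7% of all tested probe sets. That is 1 higher and 1 lower.

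Most of the tested probe sets followed the replicate number more than the genotype. In 6 of the 9 tested probe sets more of the sum of squares lay between replicate numbers than in the genotype difference and the remainder together, against 37.3% of all tested probe sets. The sign of replicate 2 minus replicate 1 was shared by both genotypes in 7 of the 9, against 60.5% of all. Of the 7, Syk 1418261_at was a near tie in wild-type cells, at -0.0043 log2 units. In 3 of the 9, namely Fyn 1417558_at, Syk 1425797_a_at and Lat2, the difference was over 4-fold in the same direction in both genotypes, against 11.5% of all. For Syk 1425797_a_at and Lat2 the lower readings are dim, as given above. The median absolute difference between the 2 cultures was 1.07 log2 units in Pac1-/- and 0.96 in wild-type cells for the 9, and 0.62 and 0.56 for all tested probe sets. The 2 exceptions in sign were Csk and Lat. Csk was 4.53-fold higher on replicate 1 in Pac1-/- cells and 1.94-fold higher on replicate 2 in wild-type cells. The Lat cultures differed by -0.00076 log2 units in Pac1-/- cells and by 0.48 in wild-type cells. On the deposited values Lat was higher on replicate 2 in both genotypes. Replicates 1 and 2 read 965 and 1135.5 in Pac1-/- cells, and 1219 and 1659 in wild-type cells. Its exception in sign therefore rests on a near tie after normalisation.

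**Figure D3:**
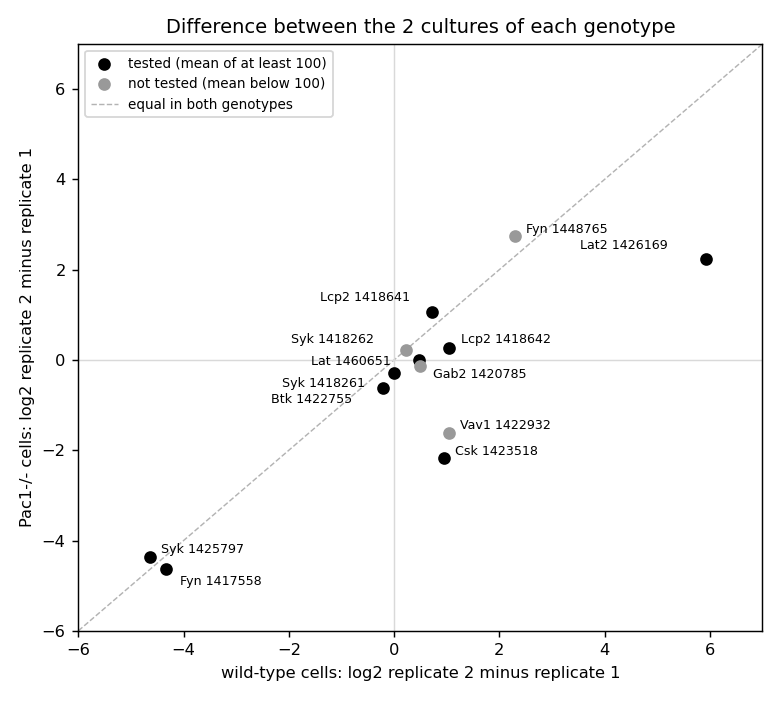
Log2 intensity of replicate 2 minus replicate 1 in Pac1-/- cells (vertical axis) and in wild-type cells (horizontal axis) for the 13 probe sets, with tested probe sets in black and untested ones in grey. Points on the dashed line differ equally in both genotypes. The 2 Fyn probe sets lie on opposite sides of 0 on both axes, at -4.62 and 2.74 in Pac1-/- cells and -4.33 and 2.30 in wild-type cells.

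Btk, Lat and Lcp2 were the 3 genes whose probe sets all read at least 100 on all 4 arrays. Their promoter windows from RefSeq are shown because they belong to the members with a level on every array. Each runs from 250 bases before to 50 bases after the annotated start, 5′ to 3′ on the gene's strand in build GRCm38.p6. Capitals mark matches, on either strand, to 4 short motifs: GATAA (bound by GATA factors), GAGGAA (the core bound by PU.1), CGGAAG (an ETS motif) and GGGCGG (the GC box). None of these motifs contains another.
Btk, chrX:134583091-134583390, minus strand: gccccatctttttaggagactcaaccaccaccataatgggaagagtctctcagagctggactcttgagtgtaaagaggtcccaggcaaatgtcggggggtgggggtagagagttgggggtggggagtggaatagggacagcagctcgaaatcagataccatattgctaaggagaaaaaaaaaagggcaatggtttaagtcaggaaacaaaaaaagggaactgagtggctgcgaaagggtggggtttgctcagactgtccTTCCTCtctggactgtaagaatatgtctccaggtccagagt
Lat, chr7:126369519-126369818, minus strand: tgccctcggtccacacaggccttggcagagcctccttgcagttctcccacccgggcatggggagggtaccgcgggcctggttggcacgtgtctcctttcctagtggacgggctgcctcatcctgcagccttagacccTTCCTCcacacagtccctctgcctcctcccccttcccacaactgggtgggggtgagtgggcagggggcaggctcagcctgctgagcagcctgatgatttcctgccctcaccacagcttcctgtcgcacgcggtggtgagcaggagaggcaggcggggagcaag
Lcp2, chr11:34046678-34046977, plus strand: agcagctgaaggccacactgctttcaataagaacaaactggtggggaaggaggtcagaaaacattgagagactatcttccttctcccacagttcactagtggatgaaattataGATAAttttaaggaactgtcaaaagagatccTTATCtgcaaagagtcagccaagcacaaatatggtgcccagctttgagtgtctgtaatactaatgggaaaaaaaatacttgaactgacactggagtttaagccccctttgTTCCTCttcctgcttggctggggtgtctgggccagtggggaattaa

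All 3 windows hold 1 GAGGAA match, read as TTCCTC on the printed strand, and Lcp2 holds 2 GATAA matches. Of the 10 genes, 7 have a window in the table, 9 windows in all, because Syk and Csk have 2 each. A GAGGAA match was in 7 of these 9, against 28.3% of all 32851 windows of that length. GATAA was in 2 of 9 (25.4% of all), GGGCGG in 3 of 9 (35.7%) and CGGAAG in 0 of 9 (16.9%). Windows of 1 gene can share sequence context, and a match to a short motif is a description of letters, not a measured binding site.

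The rest of the pathway next to the receptor was read from a list of 54 genes by role. Of these, 48 had a probe set and 31 had a tested one, 40 tested probe sets in all. In Pac1-/- cells 18 of the 40 were higher and 22 lower, and 0 passed limma's test at either the adjusted or the unadjusted level, against 0% and 3.38% of all tested probe sets. Their median log2 difference was -0.22, with -0.18 for replicate 1 and -0.30 for replicate 2 alone.

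The receptor chains were bright on most arrays. Fcer1a, the IgE-binding alpha chain, read 8845 and 12102 in Pac1-/- cells, against 7611 and 7079 in wild-type cells, a log2 difference of 0.27. Fcer1g, the signalling gamma chain, read 2893 and 5766, against 3391 and 3535 (0.06). Ms4a2, the amplifying beta chain, was higher on the replicate 2 than on the replicate 1 array of both genotypes. It read 42.2 and 1760 in Pac1-/- cells, against 149.8 and 3053 in wild-type cells, a log2 difference of -1.44.

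Of the other Src family kinases on the list, Src, Yes1, Fgr and Blk had probe sets, and all 6 of these were too dim to test. Tec, the Tec family kinase related to Btk, read 1568 and 802 in Pac1-/- cells, against 937 and 1123 in wild-type cells, a log2 difference of 0.0016. The other tested kinases of the Syk and Tec families were Zap70 (-0.79, limma adjusted p = 0.878) and Txk (-0.42, limma adjusted p = 0.951). In both the genotypes overlapped, and Pac1-/- replicate 2 read lowest, at 26.5 for Zap70 and 54.9 for Txk. The median of the 3 kinases was -0.42, with 0.31 for replicate 1 and -1.14 for replicate 2 alone. The 7 phosphatase probe sets had 5 higher and 2 lower, and those of phospholipase C, PI3 kinase and protein kinase C 3 each way.

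The 6 listed probe sets with the lowest p-values had limma adjusted p-values of 0.866 each. Nck1, an adaptor towards the actin cytoskeleton, read 172 and 211 in Pac1-/- cells, against 86.8 and 115 in wild-type cells (log2 difference 1.09 ± 0.42, SE). Dok2, an adaptor that recruits Ras inhibitors, read 72.6 and 49.7, against 187 and 124 (-1.03 ± 0.42). The others were the adaptors Crk (1448248_at, 0.85 ± 0.45), Fyb (0.72 ± 0.38) and Crkl (1436950_at, -0.83 ± 0.44) and the actin regulator Was (-0.61 ± 0.36). Crk probe sets 1416201_at (-0.30) and 1425855_a_at (-0.56) were also tested and had the opposite sign to 1448248_at. The other tested Crkl probe set, 1421953_at, had a log2 difference of -1.11. In each of the 6 picked probe sets the genotypes did not overlap, 3 higher and 3 lower in Pac1-/- cells. Of all tested probe sets, 24.3% were higher and 13.4% lower without overlap. These 6 were picked for their low p, so that count supports nothing.

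**Figure D4:**
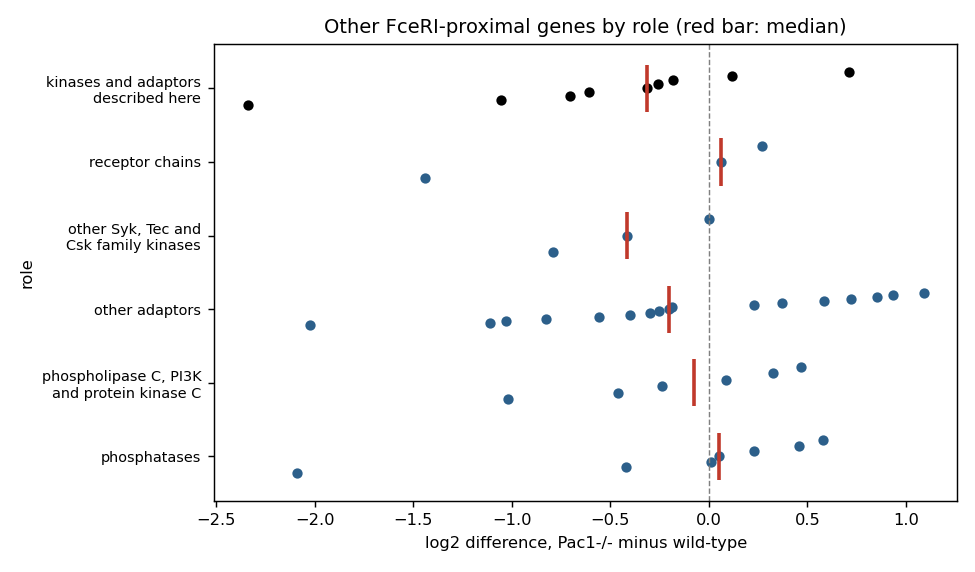
Log2 difference, Pac1-/- minus wild-type, of the tested probe sets (points) of the roles reported, with the median of each role as a red bar; the top row holds the 9 tested kinase and adaptor probe sets. Every row drawn has points on both sides of 0 (for the other kinases, Tec at 0.0016 is the only one above it).

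The brightest member probe set over the 4 arrays was Lcp2 1418641_at. The 3 genes whose centred log2 profile lay closest to it were Gyg, Rpia and Tmed7, at Euclidean distances of 0.062, 0.068 and 0.075 log2 units. Each was higher on the replicate 2 than on the replicate 1 array of both genotypes. The likeness is over 4 arrays only and was not tested.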

How the data were processed

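The values deposited by the authors are linear intensities of 22690 probe sets on 4 arrays. The submitters' processing notes name MAS5. No version or scaling setting is given in the sources used here. The series' design text describes RMA values tested with limma, and those values were not used here. After 64 control probe sets were left out, linear values were quantile normalised between arrays, raised to a floor of 16 and converted to log2. Probe sets with a mean normalised intensity of at least 100 were tested, 7770 in all. Differences were fitted with limma 3.58.1 in R 4.3.3 (lmFit and eBayes with genotype alone in the model, two-sided tests, Benjamini-Hochberg adjustment over all tested probe sets, threshold 0.05, with 2 residual and 1.71 prior degrees of freedom). The cultures are described as independent in the series' design text, and their number limits the precision. The platform annotation gives 1 symbol for 20380 probe sets, several for 691 and none for 1555.

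The text names every member probe set, Dusp2, the receptor chains, the 6 tested pathway probe sets with the lowest p and the 3 genes most like the brightest member. Tec, Zap70, Txk, the further Crk and Crkl probe sets, Cd68 and other markers named fall outside this rule and were picked with their values in view. One role group of the pathway list is not reported here. The members and lists were chosen with earlier results of these data known. The alternatives were the values as deposited, median centring, other intensity minimums and floors, an intensity trend, the replicate number as a block, and leaving out each array. The fit was tested on simulated data with a small spread and no difference between replicate numbers. That checks the code and cannot tell how many true differences these arrays would reveal. Summaries used Python 3.11.15 with pandas 2.3.3, and figures used matplotlib 3.10.9.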

Additional observations from a re-analysis of the deposited data

Results flagged for a closer look

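The control transcripts bioC, bioD and cre are added to every array, and the comparisons do not use them. They read higher on the Pac1-/- arrays. Other control probe sets were not part of this reading. Of the 12 control probe sets for bioC, bioD and cre, 12 read higher on both Pac1-/- arrays than on both wild-type arrays, with a median log2 difference of 0.81 on the deposited values (0.34 to 1.04). For replicate 1 alone the median was 0.76 and for replicate 2 alone 0.80, while all tested probe sets had a median of 0.04 on the same values. This was noticed because it is a signal in data outside the main measurement. Its part in the values of the kinases and adaptors was not tested.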

How the results depend on the processing

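The 0 calls at an adjusted p under 0.05, for the member probe sets and for the whole array, held under every alternative run. At an unadjusted p under 0.05 the whole array gave 263, but 1762 with no intensity minimum, 110 with a minimum of 200, 666 with the minimum applied after the adjustment, 899 with the replicate number as a block, and 79 to 408 with an array left out (79 without wild-type replicate 2, 86 without Pac1-/- replicate 2, 408 without Pac1-/- replicate 1). Of the member probe sets, 0 passed at that level, but 2 did with no minimum (both Syk, 1418261_at and 1418262_at), 1 with the minimum after the adjustment (Syk 1418261_at), 1 with the replicate block (Lat2) and 0 to 1 with an array left out (Lat2 without wild-type replicate 1). The labels do not say that a number pairs the cultures, and with 2 pairs the correlation of same-numbered deviations over tested probe sets, 0.75, is a hint from the data only. Under the block the lowest adjusted p of a member was 0.378, and 4 of the 40 tested pathway probe sets were under an unadjusted p of 0.05, against 11.6% of all, with 0 under an adjusted p of 0.05.

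The members' median log2 difference of -0.31 was 0.18 over the same 9 probe sets with median centring (0.30 over the 10 that were then tested) and ranged from -0.61 to 0.032 with an array left out. Median centring turned 4 of 9 differences, to 0.14 for Fyn 1417558_at, 0.51 for Btk, 0.18 for Lat and 0.44 for Lcp2 1418642_at. That setting put the median over all tested probe sets at 0.69, which by itself moves differences upwards. No other alternative on all 4 arrays turned one. With an array left out the ranges were -2.62 to 2.00 for Fyn 1417558_at, -3.02 to 1.61 for Syk 1425797_a_at, -0.57 to 0.054 for Btk, -2.15 to 0.032 for Csk, -5.30 to 0.62 for Lat2, -0.41 to 0.65 for Lcp2 1418641_at and -0.70 to 0.34 for Lcp2 1418642_at. Syk 1418261_at (0.57 to 0.85) and Lat (-0.85 to -0.37) kept their sign. In these fits the spread of the genotype with 1 array is taken from the other, and that array is set against both replicate numbers, so part of the difference between the numbers enters.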
